A study of Mus musculus with 12 samples.

Results

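Cytosolic ribosomal protein genes were followed in RNA of the medial prefrontal cortex, taken from female mice. They were taken by symbol alone, as every row of the count table named Rpl or Rps with a number, Rpsa or a stalk protein Rplp, and 81 of 24411 rows qualified, 49 of the large subunit and 32 of the small one. The 4 groups of 3 libraries were stressed KO, unstressed KO, stressed WT and unstressed WT. KO mice lack a working Cav3.1 T-type calcium channel, the product of Cacna1g, on a C57BL/6J background, and came from the RIKEN BioResource Research Center. WT mice were C57BL/6J bought from Clea Japan, so genotype and colony cannot be told apart in any comparison of KO with WT. All mice were 8 to 12 weeks old. Chronic stress was a forced swim or a tail suspension once a day for 5 days. Nothing in the labels ties the libraries of a group to separate mice, and p-values therefore reflect only how far these libraries spread.

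Ribosomal proteins and ribosomal RNA build the 2 subunits of the ribosome, and the proteins are needed in near-equal numbers. Their mRNAs are among the most abundant of any cell, are short, and begin with a run of pyrimidines through which the kinase mTOR sets how strongly they are translated. In neurons they are also found in dendrites and axons. Because these mRNAs are so often copied back into the genome, mouse chromosomes carry many processed pseudogenes that resemble them.

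The targeted gene followed the labels. Cacna1g had 58.5, 65.95 and 57.6 CPM (counts per library, scaled by depth) in stressed KO and 65.1, 54.6 and 61.7 CPM in unstressed KO, against 128, 109.8 and 109.4 CPM in stressed WT and 132.7, 144.1 and 135.3 CPM in unstressed WT. Counts per gene do not show which exons the remaining reads come from. Libraries held 15469590 to 31082240 estimated counts, and all 6 markers of cortical neurons looked up, Slc17a7 and Neurod6 among them, had counts in every library. Markers of nearby tissue were uneven. The 20 olfactory bulb markers summed to between 493 and 841 CPM in the libraries of KO and of stressed WT, against 762 to 2695 CPM in unstressed WT, highest in libraries 1 and 2. The 16 meningeal fibroblast markers summed to between 130.1 and 395 CPM in KO and stressed WT, against 428 to 1271 CPM in unstressed WT. The 15 myelin markers summed to 1308 to 2928 CPM in stressed KO, highest in library 1, against 1511 to 1767 CPM in unstressed KO, and to 2031 to 3509 CPM in stressed WT, against 1393 to 1653 CPM in unstressed WT. The 13 of 14 striatal markers that were tested summed to 248 to 843 CPM in stressed KO, highest in library 1, against 222 to 233 CPM in unstressed KO. None of these tested markers was at 0 in any group. In such bulk RNA, fewer cells of a type and less RNA per cell cannot be told apart.

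Of the 81 members, 77 had enough counts to be tested. Rpl26 and Rpl10l were listed at 0 in all 12 libraries, which at 3 counts per library allows up to between 0.0920 and 0.192 CPM. That limit covers counting error only. It does not bound Rpl26, because all counts of Rpl26 and its near-identical copy Gm15772 were in the row of Gm15772, as described below. Rpl3l, a paralog of Rpl3 known from heart and skeletal muscle, had 3 to 12 counts per library. Rpl39l, known from male germ cells like Rpl10l, had 0 to 2 counts. Their parent genes were abundant. Rpl3 was at 947 ± 65.7 TPM (SD, n = 12 libraries), Rpl10 at 695 ± 88.0 TPM and Rpl39 at 208 ± 45.6 TPM, the last low among the members. TPM is counts per transcript length scaled to the same total in each library. The members tested had a median level of 524 TPM, with quartiles of 373 and 695 TPM, against a median of 20.4 TPM over all genes tested. The highest was Rplp1, an acidic protein of the stalk that recruits elongation factors, at 1819 ± 245 TPM. Rps15 (1402 ± 208 TPM), Rpl41 (1168 ± 165 TPM), Rpl9 (1076 ± 231 TPM) and Rpl3 came next, and Rpl41, Rpl9 and Rpl3 differed from the next in this order by less than the larger of their SDs. Rpl41 encodes the shortest of the ribosomal proteins, with 75 coding bases before its stop codon. The level of a member depends on the transcript length it is divided by. Rps20, for instance, came out at 47.1 TPM on an annotated transcript of 3706 bases, of which 90.4% is non-coding. Below Rps20 stood Rps4l (44.4 TPM), Rps27l (33.5), Rpl34 (28.6), Rpl30 (18.8) and Rps27 (9.68 TPM). Rps4l is annotated as a transcribed processed pseudogene and is the only member that is not annotated as protein coding. Rps27l, a paralog of Rps27, is known as a target of p53.

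The low level of Rpl26, Rpl30, Rpl34 and Rps27 stood beside a high level in the row of another gene with nearly the same sequence. Among rows with a mean of at least 10 counts, 7 shared at least 50% of their 31-base words with a member. Rps27 encodes a zinc-finger protein of the small subunit, and its coding sequence is the same, base for base, as that of Rps27rt, an intronless gene on chromosome 9 (chr9:114982366-114982739, minus strand, GRCm38). These 255 bases, stop codon included, are given because a read from them cannot be assigned to 1 of the 2 genes.
Rps27 and Rps27rt: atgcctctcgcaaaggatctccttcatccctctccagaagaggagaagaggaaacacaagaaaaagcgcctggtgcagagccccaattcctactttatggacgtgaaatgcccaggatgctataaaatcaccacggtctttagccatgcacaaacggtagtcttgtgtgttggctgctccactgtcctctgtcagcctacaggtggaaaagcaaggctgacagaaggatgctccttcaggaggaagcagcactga

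The row of Rps27 held 52.2, 41.3 and 15.2 estimated counts in stressed KO, 43.4, 28.3 and 15.2 in unstressed KO, 34.8, 10.9 and 19.5 in stressed WT and 43.3, 41.3 and 47.8 in unstressed WT. The row of Rps27rt held 2300 to 4383 counts per library. Of the counts in the 2 rows together, between 0.384% and 1.62% stood under Rps27. Rpl30, a large subunit protein, was in the same position beside Gm12191 (chr11:49678710-49679057, minus strand), a processed pseudogene. Their coding sequences differ at 1 of 348 bases, G96A, counted from 1 at the first base of the start codon with the base of Rpl30 first. The first 120 coding bases hold that difference, in capitals.
Rpl30: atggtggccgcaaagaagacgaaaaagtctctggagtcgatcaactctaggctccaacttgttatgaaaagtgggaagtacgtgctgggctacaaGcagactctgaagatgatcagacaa
Gm12191: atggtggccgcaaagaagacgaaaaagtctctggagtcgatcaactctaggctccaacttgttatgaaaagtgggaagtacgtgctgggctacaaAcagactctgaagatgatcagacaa

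The Rpl30 row took between 1.504% and 6.45% of the counts of the pair, 107 counts per library on average against 2430 for Gm12191. Rpl34 had a mean of 134 counts, and Rpl34-ps1 (chr6:71124610-71124963, plus strand), which differs from it at 2 of 354 coding bases, had 2003. All counts of the pair of Rpl26, a large subunit protein that also binds p53 mRNA in human cells, were in Gm15772 (chr5:3236431-3236868, plus strand), with a mean of 4355 and 2 mismatches in 438 bases. In the other 3 pairs most counts stood with the member, at 91.9% for Rpl14 beside Rpl14-ps1, 77.8% for Rpl31 beside Rpl31-ps12 and 97.1% for Rps15a beside Rps15a-ps6. With the copy added, Rps27 would stand at 97.8 to 201 CPM and Rpl26 at 133 to 274 CPM, where the rows alone gave 0.471 to 1.98 CPM for Rps27 and 0 for Rpl26. Of the members, 13 carried decimal counts in at least 6 libraries, which marks reads shared out among similar sequences. Rpl14, Rpl30, Rpl31, Rpl34, Rpl37 and Rplp2 were among those with decimals in all 12, and values of these 13 rows are uncertain.

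**Figure D1:**
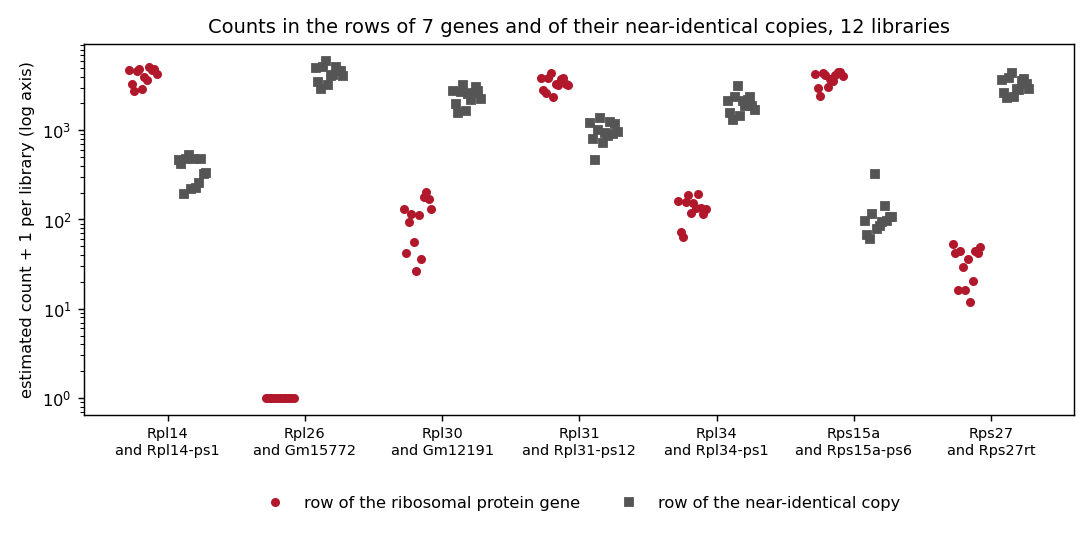
Estimated counts plus 1 on a log axis, 1 point per library, for 7 ribosomal protein genes (red circles) and the near-identical copy of each (grey squares). For Rpl26, Rpl30, Rpl34 and Rps27 the copy lies above the gene in all 12 libraries, and for Rpl14, Rpl31 and Rps15a below it.

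Some short sequences, which the choice by symbol did not use, were more frequent in the start regions of the members than in those of other genes. RefSeq (GRCm38.p6) gave start regions for 60 of the members. The letters searched were chosen after reading these regions. CTTTC, a pyrimidine run on the sense strand within 50 bases of the start, was found in 53.3% of the members, against 13.2% of 17164 other genes. CCGGAAG, the core bound by ETS-family factors such as GABP, was found on either strand from 250 bases before to 50 after the start in 41.7% of the members, against 12.7% of the other genes. AAGATGGC, the core of the YY1 motif, was found in the same window in 8.33% of the members, against 3.61% of the other genes. None of the 3 motifs contains another, and a match is a description of the letters. Windows of 3 genes, from 100 bases before to 30 after the annotated start, show members with several matches and with none, the matches within those ranges in capitals.
Rps21, chr2:180257279-180257408, plus strand: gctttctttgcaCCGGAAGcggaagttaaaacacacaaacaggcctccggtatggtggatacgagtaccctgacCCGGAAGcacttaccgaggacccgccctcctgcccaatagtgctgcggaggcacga
Rps27, chr3:90213619-90213748, minus strand: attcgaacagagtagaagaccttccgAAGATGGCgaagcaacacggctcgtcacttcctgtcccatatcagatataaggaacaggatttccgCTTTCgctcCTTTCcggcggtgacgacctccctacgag
Rpl9, chr5:65391402-65391531, minus strand: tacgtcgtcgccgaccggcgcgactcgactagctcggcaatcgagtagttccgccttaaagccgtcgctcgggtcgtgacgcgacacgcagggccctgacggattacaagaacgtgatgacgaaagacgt

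In some of the 12 libraries most members deviated in the same direction, in others they were split, and 1 library stood apart. Unstressed KO library 2 held the highest level of 74 of the 77 members. Over all genes tested, 13.7% had their highest level there. Members took 1.71% of all counts in that library, and between 1.02% and 1.32% in the other 11. The median of the members' deviations (log2 CPM minus the gene's mean over the 12 libraries) was -0.01, -0.04 and 0.08 in stressed KO libraries 1 to 3, and 0.09, 0.55 and -0.15 in unstressed KO. It was 0.03, -0.05 and 0.00 in stressed WT and 0.00, -0.22 and -0.26 in unstressed WT. So unstressed KO library 2 was high. Unstressed KO library 3 and unstressed WT libraries 2 and 3 were low, with 4, 6 and 2 of 77 members above their own mean, and these 3 libraries held the lowest level of 15, 19 and 40 members. Large and small subunit members had medians of 0.48 and 0.60 in unstressed KO library 2 and -0.25 and -0.26 in unstressed WT library 3. The coefficient of variation of a member over the libraries had a median of 17.0%, and of 9.31% without unstressed KO library 2. Rpl4, a large subunit protein lining the exit tunnel, varied least, at 5.95%. Among members whose counts are not divided with a copy, Rps21, a small subunit protein, varied most, at 37.4%, and stood 2.28-fold above its median of the other libraries in unstressed KO library 2.

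**Figure D2:**
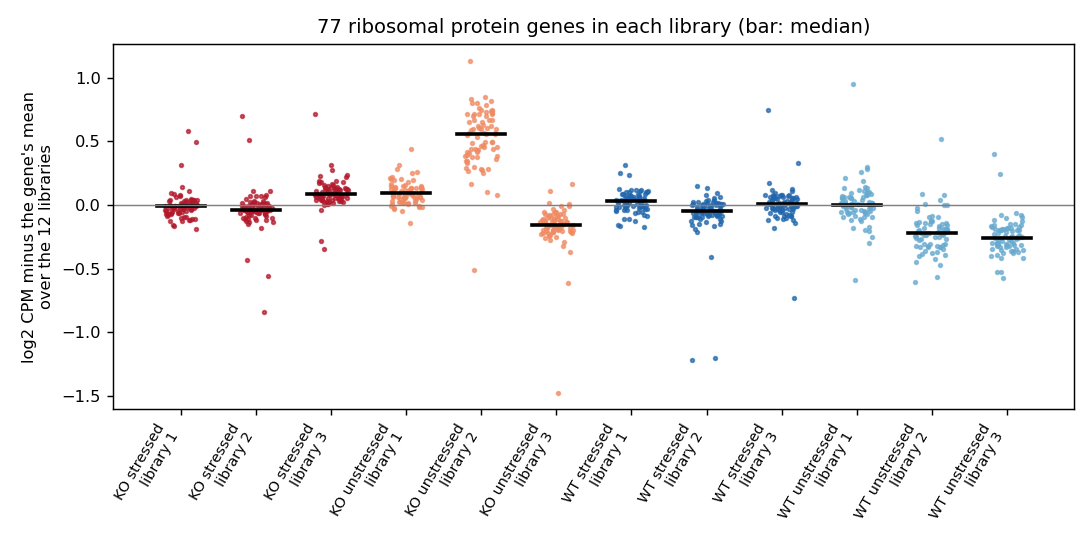
Deviation of 77 ribosomal protein genes in each library, as log2 CPM minus the gene's mean over the 12 libraries. Each point is a gene and each bar a median. Unstressed KO library 2 has a median of 0.55, and the other libraries lie between -0.26 and 0.09.

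Short genes of other families moved in the same libraries. In unstressed KO library 2 the members with up to 300 coding bases had a median deviation of 0.74, those above that and up to 450 bases 0.60, those up to 600 bases 0.53, those up to 1000 bases 0.43 and the 2 members above that 0.22. Genes outside the family had medians of 0.34, 0.21, 0.15, 0.07 and 0.00 in the same 5 length ranges, and of -0.06 above 3000 coding bases. In each range the members were further from 0 than the other genes. Unstressed WT library 3 had the opposite slope. Its members had medians of -0.37, -0.31, -0.26, -0.20 and -0.18 from the shortest range to the longest, and other genes had -0.22, -0.17, -0.13, -0.08 and -0.02. Most members are short, 55 of the 76 with a coding length having at most 600 coding bases. The part of gene length in the differences between groups was not tested.

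**Figure D3:**
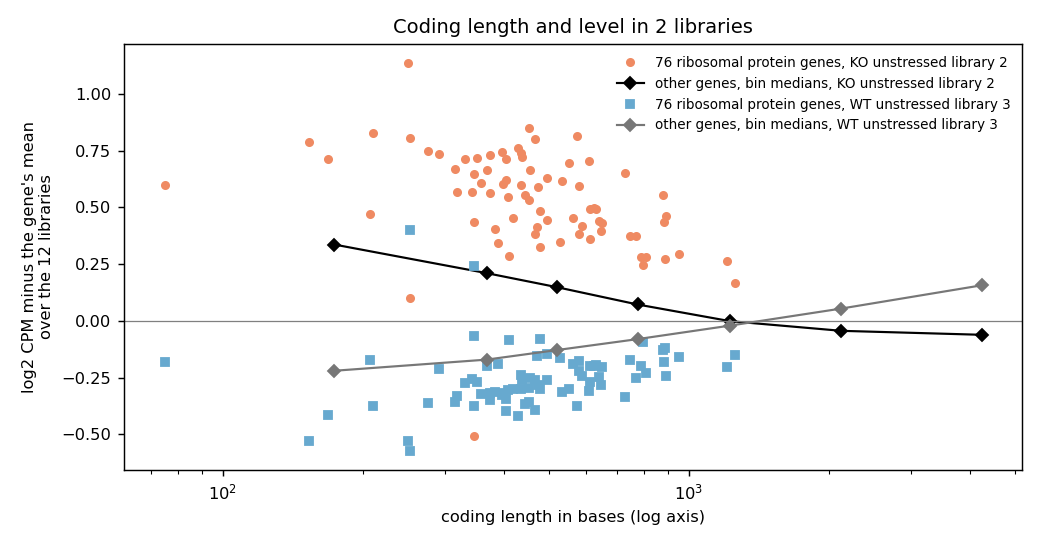
Deviation (log2 CPM minus the gene's mean over the 12 libraries) against coding length on a log axis, for 76 ribosomal protein genes in unstressed KO library 2 (orange circles) and unstressed WT library 3 (blue squares). Lines join the medians of other genes in 7 length ranges in the same libraries. Shorter genes lie higher in the KO library and lower in the WT library, in and outside the family.

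In the comparison of genotypes without stress, the members that passed the threshold were all higher in KO. Of 77 members, 20 rose in unstressed KO against unstressed WT and 0 fell at an edgeR adjusted p under 0.05, where 11.2% of all 15199 genes tested rose and 12.1% fell. These were 9 large and 11 small subunit members. The median log2 fold change was 0.35, against 0.00 over all genes tested, and 73 of 77 members were positive. At an edgeR unadjusted p under 0.05 there were 47 members (61.0%), where 39.1% of all genes were, and DESeq2 called 34 members, where it called 25.7% of genes. Among genes outside the family with at most 600 coding bases, 29.4% rose, with a median log2 fold change of 0.21, so that the members' share of 26.0% lies above that of all genes and near that of short genes. The groups of libraries were apart, KO above WT, for 10 members (13.0%), and for 18.5% of all genes tested.

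Rps21 had 132, 254 and 111 CPM in unstressed KO, against 94.2, 76.1 and 80.2 CPM in unstressed WT. The groups do not overlap, and KO library 2 is far above the other KO libraries. The difference was 0.99 ± 0.23 on the log2 scale (SE), with an edgeR adjusted p of 0.0165. Rpl9, whose protein lies near the factor-binding site of the large subunit, had 320, 488 and 263 CPM in unstressed KO, against 256, 199.8 and 214 CPM in unstressed WT. The lowest KO library is just above the highest WT library, and its log2 fold change was 0.68 ± 0.18 (edgeR adjusted p = 0.0223). Rps14, a small subunit protein whose loss of 1 copy underlies the anaemia of the human 5q deletion syndrome, had 232, 374 and 207 CPM in unstressed KO, against 190.9, 152 and 162 CPM in unstressed WT. KO library 2 is again the highest, and the log2 fold change was 0.69 ± 0.18 (edgeR adjusted p = 0.0233). Rpl34 had 5.99, 8.53 and 5.78 CPM in unstressed KO, against 4.58, 3.46 and 4.27 CPM in unstressed WT. Its row rose by 0.72 ± 0.20 on the log2 scale (edgeR adjusted p = 0.0269), and with the counts of its copy added by 0.65 ± 0.21 (edgeR adjusted p = 0.0406).

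Rpl10, an X-linked large subunit protein that completes the subunit before it joins the small one, had the smallest p among the members. It had 241, 288 and 205 CPM in unstressed KO, against 184.7, 171.6 and 179.3 CPM in unstressed WT, with a log2 fold change of 0.46 ± 0.10 (edgeR adjusted p = 0.0140). All 3 KO libraries are above all 3 WT libraries, and the WT libraries lie close together. Rps27a, which is made as a fusion with ubiquitin, rose by 0.59 ± 0.18 with overlapping groups (edgeR adjusted p = 0.0374). Rpl39, a very small protein of the exit tunnel, rose by 0.67 ± 0.18, also with overlap (edgeR adjusted p = 0.0240). Several well-known members did not pass. Rpl22, dispensable for most translation and known for its role in T cell development, had a log2 fold change of 0.32 ± 0.11 (edgeR adjusted p = 0.0579). Rpsa, also described as a laminin receptor, was at 0.26 ± 0.13 (adjusted p = 0.160 by edgeR). Rps6, the substrate of S6 kinases, was at 0.20 ± 0.12 (adjusted p = 0.213 by edgeR). Rplp0, the base of the stalk and a frequent reference gene in PCR, was at 0.04 ± 0.12 (adjusted p = 0.822 by edgeR). The Rpl30 row was at -1.01 ± 0.52 (edgeR adjusted p = 0.171), and with its copy added at 0.28 ± 0.18 (edgeR adjusted p = 0.275), so its direction turned.

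**Figure D4:**
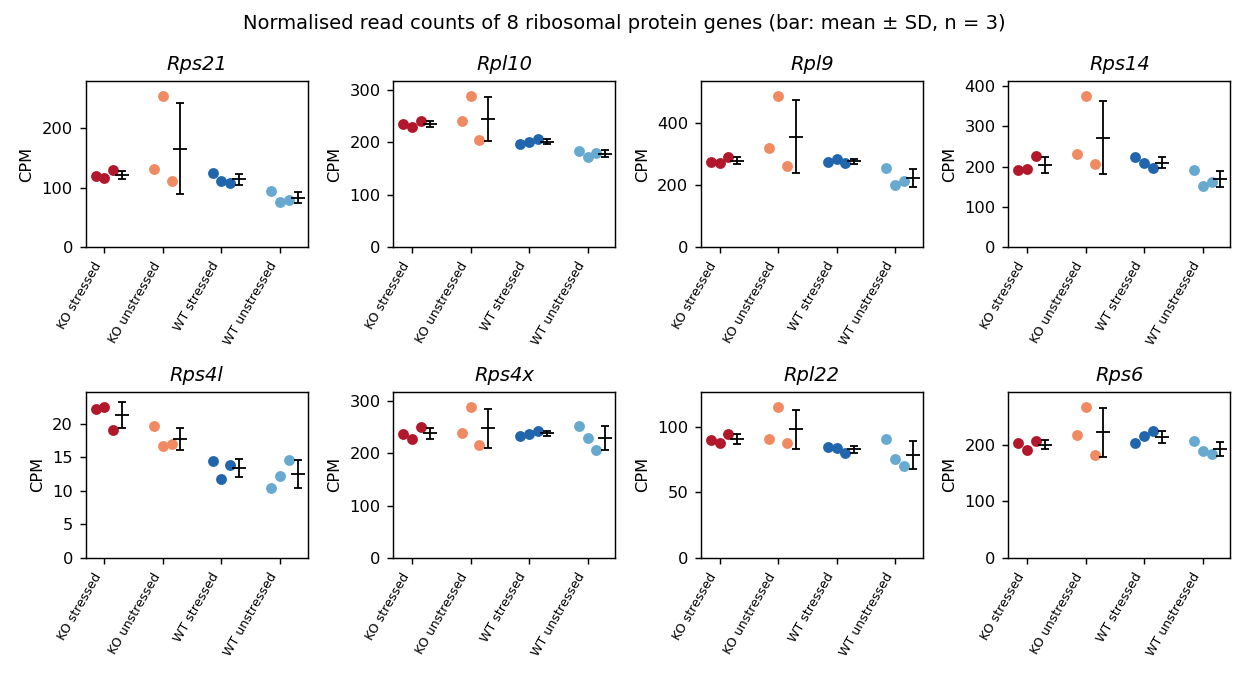
CPM of 8 ribosomal protein genes in each library from 0 upward, with mean and SD (n = 3) at the right of each group. Rps21, Rpl9 and Rps14 have 1 unstressed KO library far above the rest (254, 488 and 374 CPM), and Rps4l is higher in all 6 KO libraries than in all 6 WT libraries.

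The count of 20 rested on single libraries. It was 2 without unstressed KO library 2, 0 without unstressed WT library 2 and 51 without unstressed KO library 3. The 2 members that still passed without unstressed KO library 2 were Rps21 (0.55 ± 0.11, edgeR adjusted p = 0.0366) and Rpl10 (0.32 ± 0.08, edgeR adjusted p = 0.0451). Rpl9, Rps14 and Rpl34 then stood at 0.39, 0.38 and 0.52, with edgeR adjusted p of 0.0585, 0.0605 and 0.102. The count was 11 without unstressed KO library 1, 12 without unstressed WT library 3, 13 without stressed WT library 1, 12 without stressed WT library 2, 13 without stressed WT library 3 and 13 without stressed KO library 2. Libraries of the stressed groups enter through the shared estimate of spread, and each refit also repeats the filter, scaling and adjustment. The shares of all genes called in these refits are not given here. The counts therefore do not show whether calls changed for the members alone or over the whole table. With only the 6 libraries compared in the fit the count was 0, where 18 genes of the whole table were called. Without unstressed WT libraries 1 and 2 it was also 0. That fit leaves 1 unstressed WT library, assumed to vary like the other groups, and its median log2 fold change was 0.45, so its count of 0 says nothing about stability. In this comparison 19 of 20 olfactory bulb markers and 12 of 16 meningeal markers fell. Olfactory bulb markers summed to 536 to 757 CPM in unstressed KO against 762 to 2695 CPM in unstressed WT, and meningeal markers to 130.1 to 296 CPM against 428 to 1271 CPM. Their part in the result was not tested.

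With stress, the members' median lay near 0 between the genotypes, and Rps4l had the smallest p. By edgeR 0 of 77 members passed in stressed KO against stressed WT, where 0.250% of all genes did, and 3 had an unadjusted p under 0.05, where 13% of all genes had. DESeq2 called 1 member, Rps4l, and 1.75% of genes. The median log2 fold change was 0.01, and 43 of 77 members were positive. The groups were apart with KO above WT for 11 members and below for 1, where 10.8% and 11.3% of all genes tested were. Rps4l had 22.2, 22.5 and 19.0 CPM in stressed KO, against 14.4, 11.8 and 13.9 CPM in stressed WT. Without stress it had 19.6, 16.7 and 17.0 CPM in KO, against 10.5, 12.3 and 14.7 CPM in WT. Every KO library is above every WT library, which held for 1 of 77 members and for 1.15% of all genes tested. Its log2 fold change was 0.67 ± 0.13 with stress (edgeR adjusted p = 0.0678) and 0.51 ± 0.13 without stress (edgeR adjusted p = 0.0209). The edgeR adjusted p with stress was 0.0434 without unstressed WT library 1 and 0.0236 without unstressed WT library 3, and 0.00135 by DESeq2. Rps4l lies on chromosome 6 (chr6:148354656-148355598, plus strand, GRCm38). Its parent gene, the X-linked Rps4x, was at 0.00 ± 0.10 with stress and 0.11 ± 0.10 without. Rpl10 had 235, 229.6 and 240.2 CPM in stressed KO, against 197, 201.5 and 207 CPM in stressed WT. The groups are apart, and its log2 fold change of 0.22 ± 0.10 did not pass (edgeR adjusted p = 0.385). Rpl34, which was higher in KO without stress, had 5.57, 3.47 and 4.03 CPM in stressed KO, against 6.15, 5.65 and 6.52 CPM in stressed WT (log2 fold change -0.48 ± 0.20, edgeR adjusted p = 0.354). With its copy added the value was -0.08 ± 0.21. Rps27 was at 0.91 ± 0.41 by its own row (edgeR adjusted p = 0.369), and at 0.17 ± 0.16 with the counts of Rps27rt added. Striatal markers summed to 248 to 843 CPM in stressed KO against 240.1 to 261 CPM in stressed WT, and the 15 myelin markers to 1308 to 2928 CPM against 2031 to 3509 CPM. All 15 myelin markers had negative log2 fold changes here, with a median of -0.41. By edgeR 0 of them passed and 5 had an unadjusted p under 0.05. The part of these tissues in the members' values was not tested.

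Stress in KO moved no member past the threshold. By edgeR 0 of 77 passed in stressed KO against unstressed KO, where 0.0197% of all genes did, and DESeq2 also called 0, where it called 0.366% of genes. At an unadjusted p under 0.05 there were 4 members, and 9.2% of all genes. The median log2 fold change was -0.15, with 6 members positive, and without unstressed KO library 2 it was 0.05. Rpl34 had the smallest p, with the stressed KO values above, all below the 5.99, 8.53 and 5.78 CPM of unstressed KO (-0.62 ± 0.20, edgeR adjusted p = 0.470). Rpl35a (-0.36 ± 0.16), Rps14 (-0.41 ± 0.18) and Rpl39 (-0.40 ± 0.18) followed, with edgeR adjusted p of 0.529, 0.534 and 0.536. The groups overlap for all 3 of them, and only Rpl34 had groups apart, where 8.45% of all genes tested were lower in that way.

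Stress in WT moved no member past the threshold, while many other genes were called. By edgeR 0 of 77 passed in stressed WT against unstressed WT, where 21.9% of all genes did, and 1 member had an unadjusted p under 0.05, where 38.2% of all genes had. DESeq2 called 1 member, Rpl34, and 26.1% of genes. The median log2 fold change was 0.14, and 71 of 77 members were positive. Groups were apart with stressed WT higher for 20 members (26.0%), where 19.4% of all genes were. Genes outside the family with at most 600 coding bases had a median of 0.18. Of them 21.1% rose, and 42.8% had groups apart with stressed WT higher. Rps21 had 125, 111 and 107.7 CPM in stressed WT, against 94.2, 76.1 and 80.2 CPM in unstressed WT. The groups are apart, and its log2 fold change of 0.46 ± 0.23 did not pass (edgeR adjusted p = 0.167). Rps20 had 70.05, 67.6 and 67.2 CPM in stressed WT, against 62.6, 51.5 and 53.3 CPM in unstressed WT (0.29 ± 0.15, edgeR adjusted p = 0.183). Rpl34 stood at 0.58 ± 0.20 by its own row (edgeR adjusted p = 0.0586) and at 0.32 ± 0.21 with its copy added. Rps27 stood at -0.75 ± 0.40 by its own row, and at 0.13 ± 0.16 with the counts of Rps27rt added. Unstressed KO library 2 is in neither group compared. It enters through the shared spread and through the filter, scaling and adjustment of the fit. Without that library 7 of 77 members passed, all higher in stressed WT: Rps21, Rps20, Rpl37, Rps2, Rpl34, Rps14 and Rpl9. The share of all genes called in that refit is not given here. In the fit of all libraries 9.71% of all genes rose, so these 7 do not show a response of the members beyond that of other genes. Without stressed KO library 1, 1 member passed, Rpl34. Of 15 myelin markers 9 rose, while 17 of 20 olfactory bulb and 15 of 16 meningeal markers fell. Myelin markers summed to 2031 to 3509 CPM in stressed WT against 1393 to 1653 CPM in unstressed WT, and the part of these tissues in the members' values was not tested.

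**Figure D5:**
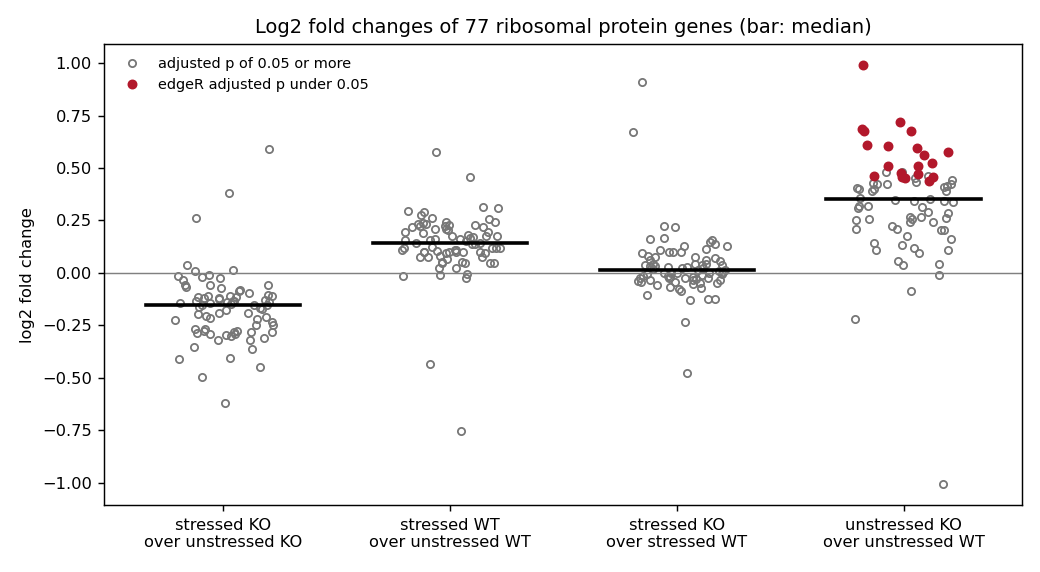
Log2 fold changes of 77 ribosomal protein genes in 4 comparisons, each point a gene, each bar the median. Filled points have an edgeR adjusted p under 0.05. The 20 filled points are all in unstressed KO over unstressed WT, with a median of 0.35, and the other medians are -0.15, 0.14 and 0.01. Comparisons that share a group are not independent.

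Whether stress acted differently in the 2 genotypes was asked by the interaction, the log2 fold change of stress in KO minus that in WT. By edgeR 0 of 77 members passed, where 0% of all genes did, and 10 had an unadjusted p under 0.05, where 28.5% of all genes had. The median was -0.31, with 4 members positive, and -0.10 without unstressed KO library 2. Rpl34 was closest to the threshold, at -1.20 ± 0.29 (edgeR adjusted p = 0.0575), or -0.73 ± 0.29 (edgeR adjusted p = 0.130) with its copy added. Rps14 was at -0.72 ± 0.26, Rps21 at -0.91 ± 0.33 and Rpl39 at -0.68 ± 0.26, with edgeR adjusted p of 0.103, 0.107 and 0.115. DESeq2 called 3 members lower in this contrast, Rpl34, Rps21 and Rps14, where it called 12.7% of all genes in either direction. Without unstressed WT library 3, edgeR called Rpl34.

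Other genes of the translation machinery were counted in the same fit, and their counts stand beside the 11.2% of all genes that rose and 12.1% that fell in unstressed KO against unstressed WT. Of 7 ribosomal proteins whose names fall outside the symbol rule, 2 rose and 0 fell in unstressed KO against unstressed WT. These were Rpl22l1, the paralog of Rpl22, at 1.28 ± 0.25 (edgeR adjusted p = 0.0101), and Rpl36al, a copy of Rpl36a, at 0.50 ± 0.13 (edgeR adjusted p = 0.0208). The mean deviation of these 7 genes was 0.53 in unstressed KO library 2 and between -0.27 and 0.10 in the other libraries. The part of that library in these 2 rises was not tested. Of 25 translation factors and other RNAs with a pyrimidine start, 4 rose and 2 fell in that comparison, with a median log2 fold change of 0.14. DESeq2 called 7 of them higher and 2 lower. The mean deviation of this list was 0.25 in unstressed KO library 2 and between -0.14 and 0.09 in the other libraries. The part of that library in these counts was not tested. The elongation factor Eef1b2 was at 0.44 ± 0.12 and the initiation factor subunit Eif3e at 0.40 ± 0.10, while the poly(A)-binding protein Pabpc1 was at -0.28 ± 0.09 (edgeR adjusted p = 0.0246, 0.0170 and 0.0465). Of 46 ribosome biogenesis factors 4 rose, the small nucleolar proteins Nhp2 and Nop10 among them, and 2 fell, with a median of -0.02. Of 27 regulators of ribosomal protein synthesis 2 rose and 7 fell, with a median of -0.10. The mTOR activator Rheb was at 0.62 ± 0.09, and the kinase Mtor at -0.35 ± 0.09 (edgeR adjusted p = 0.00563 and 0.0206). Of 12 chaperones and importins of ribosomal proteins 1 rose and 0 fell.

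In stressed WT against unstressed WT the same lists gave 0 of 7, 2 of 25, 8 of 46, 2 of 27 and 0 of 12 genes higher, and 0, 0, 2, 4 and 1 lower, where 9.71% of all genes tested rose and 12.1% fell. DESeq2 gave 0 calls in the list of 7 there, and 3 of its genes had an edgeR unadjusted p under 0.05. In the other 3 comparisons edgeR called 0 genes of any of the 5 lists. At an unadjusted p under 0.05 there were 0 to 4 genes a list in stressed KO against unstressed KO, 1 to 8 in stressed KO against stressed WT and 1 to 14 in the interaction, where 9.2%, 13% and 28.5% of all genes were. DESeq2 called 1 gene of the chaperone list lower in stressed KO against unstressed KO, 0 in stressed KO against stressed WT and 0 to 4 a list in the interaction.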

How the data were processed

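The authors deposited 1 table of estimated counts per gene symbol, not normalised, for 12 libraries. The submitters' processing notes name build mm10 and the tools RSEM 1.3.1, DESeq2 1.36.0, STAR 2.7.9a and Trim Galore 0.6.6. The library kit keeps strand, per the labels' protocols, while the annotation and the strand setting of the counting were not found in these sources. Counts shared out among similar sequences carry decimals.

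Counts were rounded, genes filtered with filterByExpr (minimum count 10, total 15) and libraries scaled by TMM. One edgeR 4.0.16 quasi-likelihood fit of 4 group means (R 4.3.3, limma 3.58.1, 8 residual degrees of freedom) gave 5 two-sided comparisons, with Benjamini-Hochberg adjustment over 15199 genes and a threshold of 0.05. It was tried on simulated counts that held no outlying library, no uneven tissue and no trend with gene length. That trial therefore does not cover these features of the data. Errors of fold changes are standard errors, and log2 CPM used a prior count of 2. Intervals from 3 counts cover counting error only. Alternatives were another scaling, scaling without the members, no filter, DESeq2 1.42.0, fewer groups or libraries, a replicate block, members without decimals, and copies added.

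Members and lists were chosen with earlier results of these data known. Per comparison, the named members are the 4 largest passing changes with groups apart or, where fewer than 4 passed, the 4 smallest p. Paralogs with their parents, Rps6, Rplp0, Rpsa, Rps27a, Rpl22, the extremes of level and members with most decimals are always named. Rpl4, Rpl10 and Rpl39 in unstressed mice, Rps20's level, Rpl22l1 and other list genes were picked after their values were seen. TPM used the shortest GENCODE M21 (GRCm38) transcript with the full coding sequence in place of the planned exon union, which long isoforms inflate. Replicates differed by 5.07 to 71.7 chi-square per degree of freedom, so none was merged.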

Additional observations from a re-analysis of the deposited data

How the results depend on the processing

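For unstressed KO against unstressed WT, the count of 20 members was 34 by DESeq2, 0 with only the compared groups in the fit, 0 without unstressed WT libraries 1 and 2, and 0 when unstressed KO library 2 was left out as well, an alternative chosen after seeing the data. Both of these fits keep 1 unstressed WT library, with medians of 0.45 and 0.25, and their 0 says nothing about stability. With the replicate number as a block it was 10. The labels do not say whether the numbers pair the libraries. Same-numbered libraries correlated at -0.246 to 0.364, over 0.1 in 4 of 18 pairs. A library correlated best with its own number in 9 of 36 cases. These values show no regular pairing across the groups, but with so few libraries they cannot exclude one. Leaving out each library in turn gave 0 to 51 for that comparison, 0 to 7 for stress in WT, 0 to 0 for stress in KO, 0 to 1 for stressed KO against stressed WT and 0 to 1 for the interaction. These counts are given without the shares of all genes called in the same fits. DESeq2 gave 1 for stress in WT, 1 for stressed KO against stressed WT and 3 for the interaction. That between stressed KO and stressed WT was 1, Rps4l, without unstressed WT libraries 1 and 2, and 1 without unstressed KO library 2 too. Adding the counts of near-identical copies, also chosen after seeing the data, reversed Rps27 for stress in WT, to 0.13, and Rpl30 in unstressed KO against unstressed WT, to 0.28, since most counts then come from the copy. It also turned the stress effect on Rpl30 in KO (-0.16) and in WT (0.08) and its interaction (-0.24). Rps27 turned likewise in unstressed KO against unstressed WT (0.49), in stressed KO against unstressed KO (-0.19) and in the interaction (-0.32). The cause of the other changes was not tested, beyond the smaller number of libraries in such fits. The other scalings and no filter kept all 5 counts within 1.5 times. Leaving out members with decimals did so too, but it only drops rows from the same fit and cannot change a fold change. Members near 0 changed sign. Leaving out each library in turn gave -0.10 to 0.15 for Rplp0 and -0.011 to 0.20 for Rps4x in unstressed KO against unstressed WT, and -0.036 to 0.031 for Rps4x with stress, which was at -0.0014 with no filter and -0.00039 by DESeq2. Of 670 values under alternatives, of the fold changes given in the comparisons above, 596 kept direction and side of the threshold, 43 lost the call, 18 gained one and 13 reversed. The 596 include values from leaving out members with decimals, which could not change. Counting depth limits Rpl3l and Rpl39l.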
